A study of Saccharomyces cerevisiae with 10 samples.

Results

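The subject is the RNA profile of a budding yeast strain in which Epl1, a subunit of the histone acetyltransferase complex NuA4, was cut back to the range labelled 1:380, set against a strain with full-length tagged Epl1. The comparison rests on 4 two-colour arrays, 2 of Epl1 1:380 and 2 of tagged Epl1, out of 10 arrays in the series. These were all the arrays that carry either label, and no measured value was used to choose them. All 6377 features of the arrays are described, 5315 with a gene name and 1062 without one. Both strains carry a FLAG tag on Epl1, and the label of the control names no truncation. EPL1 has 832 codons, and the range 1:380 was taken to name the residues retained. The series also holds Epl1 1:485, a longer tagged fragment, a deletion of eaf1 and an HA-tagged strain with the label Eaf1 1:982, 2 arrays each. An HA tag stands in the deletion titles but not in their source label, and the EAF1 gene has 982 codons, so Eaf1 1:982 spans the whole protein although its label calls it a truncation. On every array the RNA of a strain was co-hybridised with RNA of the same pool, the strain carrying Cy3 in replicate a and Cy5 in replicate b. Cultures were grown in plates to mid-log phase, per the labels. Whether replicates a and b were grown separately is not given there, and the p-values hence measure only how these arrays vary, which may be technical. The strain RNA of Epl1 1:380 replicate b carries the isolation label that the pool carries elsewhere, unlike every other strain RNA, and the part of this in the results was not tested.

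NuA4 acetylates the tails of histones H4 and H2A in nucleosomes and is needed for growth. Its catalytic subunit Esa1 works in a small module, piccolo NuA4, with Yng2, Eaf6 and the N-terminal part of Epl1. The C-terminal part of Epl1 ties this module to Eaf1, the platform on which the larger complex is built, and through it to Tra1, the subunit that contacts transcription activators. The strain therefore asks what yeast transcribes when the module is kept and its tie to the rest of the complex is cut.

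Calls required a fold above 1.7 together with an adjusted p below 0.05 from limma (Benjamini-Hochberg), and "rose" and "fell" are used below for called features alone. Epl1 1:380 differed from tagged Epl1 in 243 features, which is 3.81% of those tested. Of these, 176 rose (2.76%) and 67 fell (1.05%). Among named genes 126 rose (2.37%) and 63 fell (1.19%). The features without a gene name supplied another 50 rises and 4 falls. Most changes were moderate: 83 rises lay under 2-fold, 69 between 2-fold and 3-fold, 18 between 3-fold and 5-fold and 6 above 5-fold. Among the falls 49 lay under 2-fold, 16 between 2-fold and 3-fold and 2 above 3-fold. Without the fold limit, 1385 features were higher (21.7%) and 1216 lower (19.1%) at an adjusted p under 0.05, so small shifts of either sign were widespread. The median difference over all features was 0.01 on the log2 scale, and 51.75% of features had a positive difference. The arrays of both strains stayed apart, with no overlap, for all 243 called features, but also for 39.1% of all features in the upward and 34.7% in the downward direction.

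**Figure D1:**
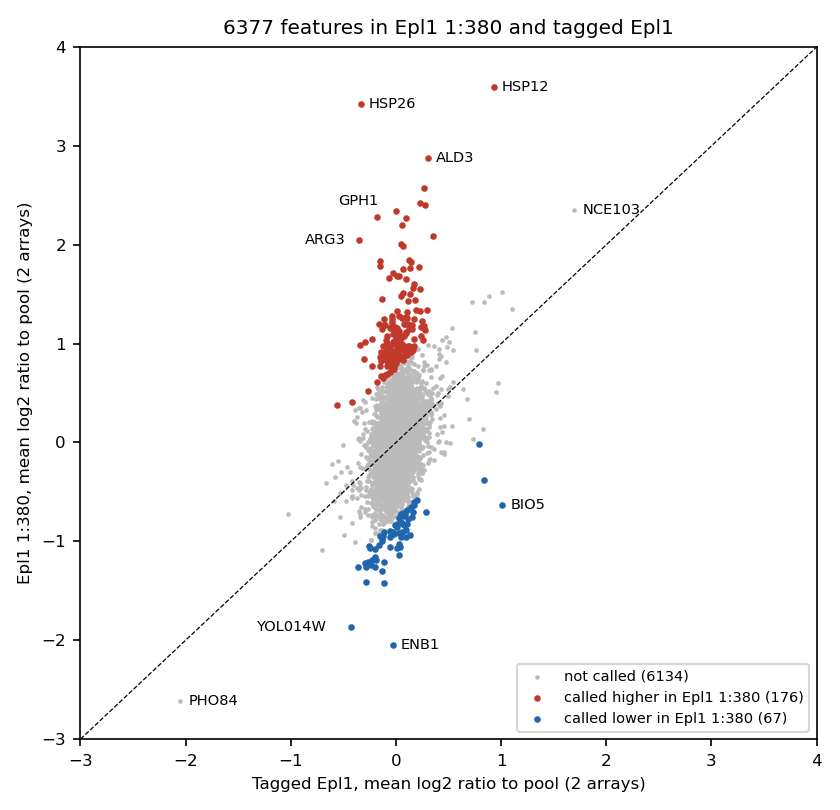
Each point is 1 of 6377 features, with the mean log2 ratio of strain to pool over 2 arrays in tagged Epl1 on the horizontal axis and in Epl1 1:380 on the vertical axis. The dashed line marks equal values. The 176 features called higher and the 67 called lower leave the line mainly along the vertical axis, since tagged Epl1 stayed near the pool, while PHO84 and NCE103 lay far from the pool in both strains and were not called.

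The change lay mainly in Epl1 1:380 and not in the control. Tagged Epl1 differed from the pool in 14 features (0.22%), 12 higher (0.188%) and 2 lower (0.0314%). Epl1 1:380 differed from it in 283 (4.44%), 206 higher (3.23%) and 77 lower (1.21%). Of the 176 rises, 165 were also called above the pool, and of the 67 falls, 50 were also called below it. For BIO3, BIO5 and YJR154W the control itself stood more than 1.7-fold above the pool, so that their falls brought them back towards the pool or past it. Between 98.3% and 99.4% of gene spots on the 4 arrays stood above background in the strain channel. Values of all features in both Epl1 1:380 arrays correlated with r = 0.922 and in both tagged Epl1 arrays with r = 0.678, which describes agreement across genes that are not independent. The difference taken within replicate a and within replicate b had a median of 1.04 and 1.03 over the features that rose, and of -0.93 and -0.91 over those that fell. With scanner intensities scaled by the added RNA controls, the median of all features moved to 0.30, and 38 features rose and 1 fell. The share of rises among the calls was then 97.44%, against 72.43% with the deposited values. The size of that shift depended on which control array was used. On this scale the median of all features was -0.75 in tagged Epl1 replicate b and -0.33 in replicate a. It was -0.26 and -0.27 in Epl1 1:380. The HA-tagged Eaf1 strain stood at -0.72 in replicate a and -0.39 in replicate b, so the low value of tagged Epl1 replicate b was not unique. Which tagged Epl1 array is off cannot be told from this pair. Without tagged Epl1 replicate b, an alternative chosen after seeing the data, the median difference was 0.03, and 3 features rose and 0 fell. Without replicate a they were 0.51, 94 and 1. All changes below are relative to the bulk of the genes.

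The targeted gene was examined first. EPL1 stood at -0.05 and -0.01 in the tagged Epl1 arrays and at 0.34 and 0.36 in the Epl1 1:380 arrays, as log2 ratios to the pool for replicates a and b. Both truncation arrays lay above both control arrays. The difference of 0.38 ± 0.07 (SE, n = 2 per strain) had an adjusted p of 0.0024 and stayed under the fold limit. The sources used here do not say where in EPL1 the probe lies, and this value does not check the truncation. EAF1, the platform gene, went from 0.15 and 0.11 to -0.13 and -0.25, a difference of -0.32 ± 0.09 (adjusted p = 0.0187) that was also under the fold limit. ESA1, which encodes the catalytic subunit, had a difference of 0.03 ± 0.08, and TRA1 of -0.02 ± 0.10. Of the 13 NuA4 subunit genes measured, 0 were called. At an adjusted p under 0.05, 2 were higher (15.38%) and 1 was lower (7.69%), against 21.7% and 19.1% of all features. The median difference was 0.01, against 0.01 over all features. SWC4, which codes for a subunit shared with the SWR1 complex, was the second of the higher genes, at 0.27 ± 0.06.

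Around the complex, the bromodomain genes BDF1 and BDF2 stood out. BDF1 codes for a bromodomain protein that binds acetylated histone H4 and works with TFIID and SWR1, and BDF2 for its close relative. BDF1 stood at -0.02 and 0.10 in tagged Epl1 and at 1.07 and 0.93 in Epl1 1:380, and BDF2 at -0.05 and -0.19 and 1.01 and 0.94. Both rose, BDF1 1.94-fold (0.96 ± 0.07, adjusted p = 2.27e-05) and BDF2 2.14-fold (1.10 ± 0.07, adjusted p = 1.21e-05). BDF2 missed the threshold with normexp and loess (1.20, adjusted p = 0.0752) and with print-tip loess (1.15, adjusted p = 0.0569) of the scanner intensities. These were the 2 called (16.67%, against 2.76% of all features) among 12 measured genes listed for the SWR1 complex and H2A.Z. BDF2 was in that list as the relative of BDF1, and the list median was 0.11. SWC5, a subunit needed for histone exchange by SWR1, went the other way by -0.52 ± 0.07 (adjusted p = 0.000718), short of the fold limit. HTZ1, the H2A.Z gene itself, had a difference of 0.16. None of the 10 histone genes was called, and their median was 0.17. HHT2, 1 of the genes for histone H3, had the largest histone difference at 0.48 ± 0.07. Of 52 other genes for histone acetylation and deacetylation, 0 were called, with a median of 0.00.

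The largest rise belonged to HSP26, a small heat shock protein that keeps unfolded proteins from aggregating. It stood at -0.22 and -0.45 in tagged Epl1 and at 3.61 and 3.23 in Epl1 1:380, a rise of 13.5-fold (3.76 ± 0.14, adjusted p = 1.68e-06). HSP12, a membrane-associated stress protein, was already above the pool in the control, at 1.23 and 0.63, and reached 3.43 and 3.75 (6.33-fold, adjusted p = 3.80e-05). The control arrays of HSP12 differ from each other more than the truncation arrays do. The other rises above 5-fold were ALD3, HXK1, ARG3 and GPH1, an aldehyde dehydrogenase, a hexokinase, an enzyme of arginine synthesis and glycogen phosphorylase, and each is taken up with its pathway below.

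**Figure D2:**
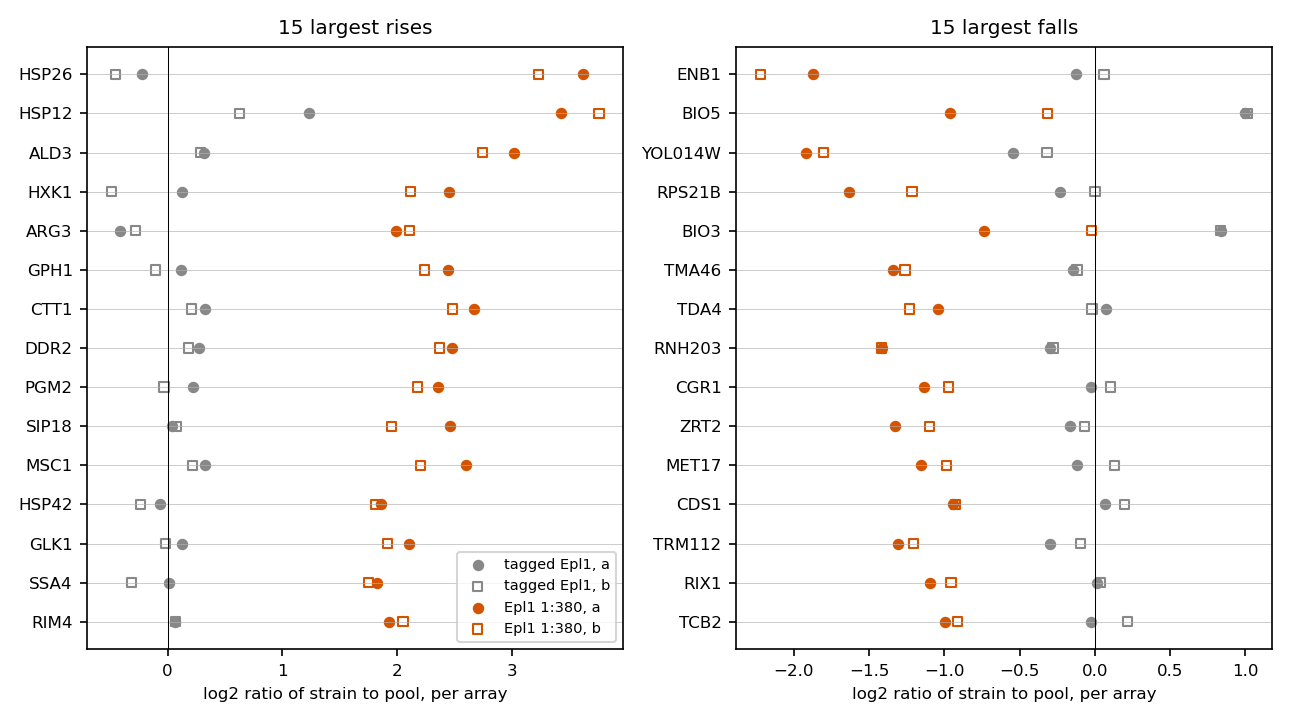
Log2 ratios of strain to pool on each of 4 arrays for the 15 named genes with the largest rise (left) and the 15 with the largest fall (right), with grey for tagged Epl1, orange for Epl1 1:380, filled circles for replicate a and open squares for replicate b. In every row both orange symbols lie on one side of both grey ones. BIO5 and BIO3 start above 0.8 in tagged Epl1, and the Epl1 1:380 replicates of RPS21B, BIO5 and BIO3 lie further apart than those of most other genes shown.

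Chaperone genes rose in part. Of 32 measured, 9 rose (28.12%, against 2.76% of all features) and 0 fell, with a median of 0.37. HSP42, the other cytosolic small heat shock protein, went from -0.07 and -0.23 to 1.86 and 1.81 (3.97-fold), and SSA4, an Hsp70 that is made under stress, from 0.01 and -0.32 to 1.82 and 1.75 (3.83-fold). HSP104, the disaggregase, rose 2.47-fold (1.30 ± 0.15). HSP78, its mitochondrial relative, and HSP60, the mitochondrial chaperonin, rose 1.77-fold and 1.76-fold. The calls of HSP104 and HSP60 were lost with normexp and loess (1.27 and 0.54) and with print-tip loess (1.33 and 0.75) of the scanner intensities. HSP31, a methylglyoxalase related to chaperones, rose by 0.90, but its truncation arrays were far apart, at 1.20 and 0.52. The abundant Hsp90 genes HSC82 and HSP82 differed by 0.49 and 0.34 and were not called. SSA1 gave -0.66 and 0.86 in the truncation arrays, so that its difference of 0.23 ± 0.54 lies within the spread between arrays. HSF1, the gene of the heat shock transcription factor, had a difference of -0.14.

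Genes for reserve carbohydrates were higher along most of their pathways. Trehalose is a disaccharide that protects proteins and membranes, and glycogen is the glucose polymer that yeast stores as growth slows. Of 7 trehalose genes measured, 3 rose (42.86%, against 2.76% of all features). TPS1, the synthase subunit, rose by 1.29 ± 0.09, TPS2, the phosphatase subunit, by 1.27 ± 0.10, and TSL1, a regulatory subunit, by 1.74 ± 0.13. TSL1 was at 0.46 and 0.23 in the control arrays and at 2.24 and 1.94 in the truncation arrays. TPS3, which codes for the alternative regulatory subunit, had a difference of 0.00. The trehalases NTH1 and NTH2, which break the sugar down, were higher by 0.67 and 0.56 at adjusted p-values of 0.001 and 0.000356, below the fold limit.

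Of 15 glycogen genes, 6 rose and 0 fell, with a median of 0.55. GPH1, glycogen phosphorylase, went from 0.11 and -0.10 to 2.44 and 2.24, a 5.04-fold rise (adjusted p = 1.91e-06). PGM2, the main phosphoglucomutase, which links glucose-6-phosphate to glycogen and trehalose precursors, went from 0.22 and -0.03 to 2.35 and 2.18 (4.51-fold). UGP1, which makes UDP-glucose, and the glycogen synthases GSY1 and GSY2 rose 1.71-fold, 1.89-fold and 2.21-fold. Synthesis and breakdown genes therefore rose side by side. GLC3, the branching enzyme, and GDB1, the debranching enzyme, were higher by 0.55 and 0.71 and were not called. The initiating glycogenins GLG1 and GLG2 differed by 0.28 and 0.06.

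Entry of glucose into these routes showed rises of single members. HXK1, a hexokinase that is low on glucose, went from 0.12 and -0.49 to 2.45 and 2.11 (5.52-fold, 2.46 ± 0.21), and GLK1, glucokinase, from 0.12 and -0.02 to 2.10 and 1.91 (3.88-fold). HXK2, the main hexokinase on glucose, differed by 0.08 ± 0.07, and EMI2, a relative of GLK1, by -0.11 ± 0.11. Of 16 hexose transporter and sensor genes, 1 rose (6.25%, against 2.76% of all features). That gene was HXT5, a transporter made when growth is slow (2.06-fold). In glycolysis 2 of 21 genes rose (9.52%), FBA1, aldolase (1.88-fold), and CDC19, pyruvate kinase (1.81-fold). The truncation arrays of FBA1 stood at 0.73 and 1.63, and those of several other abundant glycolytic genes were as far apart or further, such as TDH1 at -0.46 and 0.74 and GPM1 at -1.33 and -0.22. With each of the 4 arrays left out in turn the FBA1 difference ranged from 0.46 to 1.36, and its call was lost without Epl1 1:380 replicate b and without tagged Epl1 replicate a. With normexp and loess and with print-tip loess of the scanner intensities both calls were lost, at 0.57 and 0.73 for FBA1 and 0.46 and 0.45 for CDC19.

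In the pentose phosphate pathway, which makes NADPH and ribose, the called rises were all in the less used member of a gene pair. SOL4, GND2, TKL2 and NQM1 code for a phosphogluconolactonase, a phosphogluconate dehydrogenase, a transketolase and a transaldolase. NQM1 went from 0.20 and 0.09 to 2.01 and 1.64 (1.68 ± 0.11) and TKL2 from 0.13 and -0.01 to 1.596 and 1.43 (1.45 ± 0.07). SOL4 rose by 1.31 ± 0.12 and GND2 by 1.22 ± 0.10. The major counterparts were not called and had negative differences: -0.36 ± 0.07 for SOL3, -0.17 ± 0.08 for GND1, -0.07 ± 0.06 for TKL1 and -0.11 ± 0.13 for TAL1. RKI1, the ribose-5-phosphate isomerase that has no relative in the list, fell 1.79-fold, from -0.08 and 0.10 to -0.84 and -0.82. ZWF1, the first enzyme of the pathway, differed by 0.30 ± 0.14. Of the 13 genes measured, 4 rose (30.77%, against 2.76% of all features) and 1 fell (7.69%, against 1.05%), and the median was 0.03.

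A similar split appeared in some other families of related genes. Among 54 listed groups of paralogs or related enzymes with at least 2 members measured, 23 had some but not all members called. In 3 groups every member was called and in 28 none, and no group had members called in opposite directions. These counts depend on the groups listed. BDF1 and BDF2, SIP18 and GRE1, and DDI2 and DDI3, pairs in which both members rose, were not listed. Nor were MFA1 and MFA2, of which only MFA1 rose. PGM2 rose while PGM1 differed by -0.22 ± 0.07. ALD3 went from 0.32 and 0.28 to 3.02 and 2.74 (5.96-fold), while its neighbour in sequence ALD2 differed by 0.48 ± 0.08. ALD4, the main mitochondrial aldehyde dehydrogenase, rose by 0.90 ± 0.12, and ALD5, another mitochondrial one, had a difference of -0.72 ± 0.10 just short of the fold limit. GPD1, the glycerol-3-phosphate dehydrogenase of the osmotic stress response, rose 2.11-fold, against -0.20 ± 0.16 for GPD2. DCS2, an inhibitor of mRNA decapping scavenging, rose by 1.12, and DCS1, the scavenger enzyme, differed by 0.54. The difference between the members of a pair was not tested, and probes of near-identical genes can share signal.

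**Figure D3:**
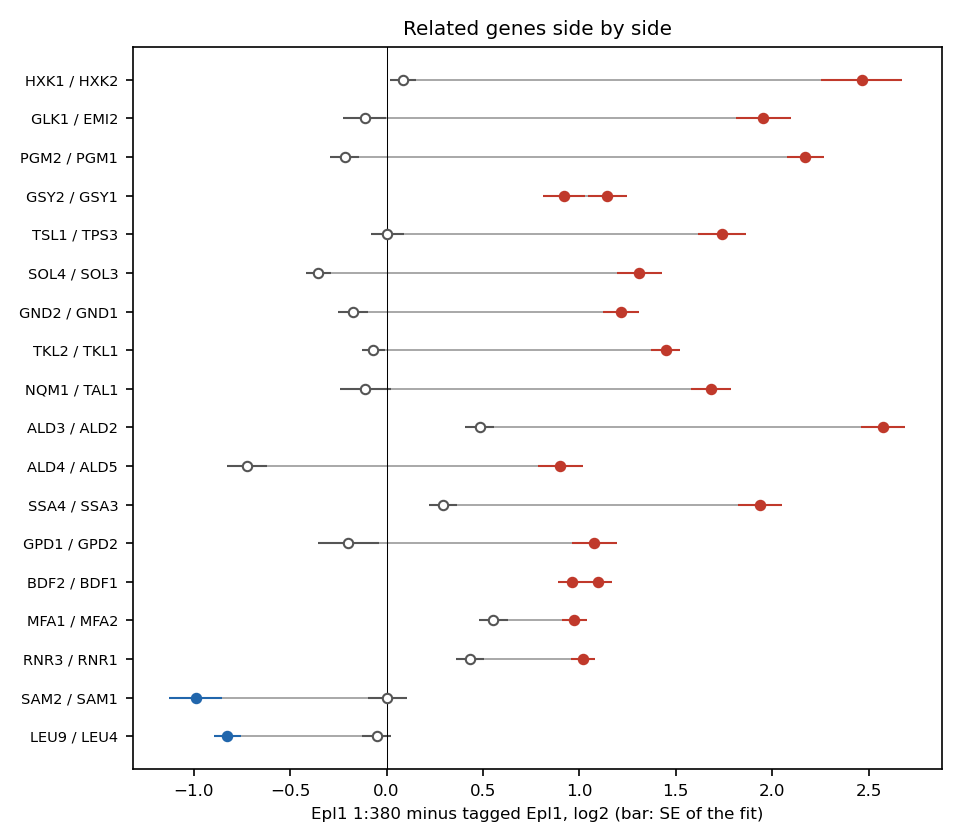
Difference between Epl1 1:380 and tagged Epl1 on the log2 scale for 18 pairs of related genes, with bars for the standard error of the fit (n = 2 arrays per strain), red for genes that rose, blue for genes that fell and open symbols for genes not called. In GSY2 and GSY1 and in BDF2 and BDF1 both members rose. In the other pairs 1 member was called, and SOL3, GND1, TKL1, TAL1, PGM1, EMI2, ALD5, GPD2 and LEU4 lie left of zero.

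Among 40 genes listed as other stress effectors 19 rose (47.5%, against 2.76% of all features) and 0 fell, with a median of 0.65. This list shares members with others, such as ALD3 with the aldehyde dehydrogenases. DDR2, a small stress protein of unknown role, went from 0.27 and 0.18 to 2.47 and 2.37 (4.57-fold, adjusted p = 1.68e-06), and MSC1, a gene first found for meiotic recombination, from 0.33 and 0.22 to 2.598 and 2.20. SIP18, a phospholipid-binding protein of the osmotic response, and GRE1, a related hydrophilin, rose 4.43-fold and 3.24-fold. PNC1, a nicotinamidase that acts upstream of the deacetylase Sir2, rose 2.57-fold, from 0.01 and -0.33 to 1.34 and 1.05. PEP4 and PAI3, the vacuolar protease A and its inhibitor, rose by 0.77 and 1.05. The group was not uniform, as DDR48 had a difference of 0.00 and STF1 of -0.49, neither of them called. Of the 40, 28 were higher at an adjusted p under 0.05 without the fold limit and 1 was lower, against 21.7% and 19.1% of all features.

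Regulators of such genes were higher in part, mostly under the fold limit. Among 22 stress regulator genes 1 rose (4.55%, against 2.76% of all features) and 0 fell. It was XBP1, a repressor made under stress and starvation, which went from 0.16 and 0.10 to 1.63 and 1.38 (2.59-fold). At an adjusted p under 0.05, 10 of the 22 genes were higher (45.45%) and 2 lower (9.09%), against 21.7% and 19.1% of all features. The list median was 0.18. MSN4, 1 of the pair of general stress activators, was higher by 0.64 ± 0.06 (adjusted p = 5.92e-05), and its partner MSN2 differed by -0.13 ± 0.09. USV1, a zinc finger regulator, was higher by 0.61, and ADR1, an activator of genes repressed by glucose, by 0.54. MGA2, an activator of the fatty acid desaturase gene, had a difference of -0.72 ± 0.06, just under the fold limit. Of 38 antioxidant genes 1 rose (2.63%) and 2 fell (5.26%), against 2.76% and 1.05% of all features. In all 23.68% were higher and 18.42% lower at an adjusted p under 0.05, close to the 21.7% and 19.1% of all features. CTT1, the cytosolic catalase, rose 4.95-fold, from 0.33 and 0.21 to 2.67 and 2.48, while MXR1, a methionine sulphoxide reductase, and CCS1, the copper chaperone of superoxide dismutase, fell 1.94-fold and 1.91-fold. CTA1, the peroxisomal catalase, differed by -0.07, SOD1 by 0.22 and TSA1, the main peroxiredoxin, by -0.10.

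Genes of the cell surface were higher in part. Of 63 genes for cell wall proteins and for glucan or chitin enzymes, 13 rose (20.63%, against 2.76% of all features) and 0 fell, with a median of 0.27. PIR3, a covalently bound wall protein, went from 0.05 and 0.04 to 1.42 and 1.54 (1.44 ± 0.06), CWP1 from -0.27 and -0.41 to 1.10 and 0.87 and CWP2 from -0.12 and -0.11 to 1.11 and 1.26. GSC2, the glucan synthase subunit used under stress and in spores, rose 2.21-fold, whereas FKS1, which codes for the subunit used in growth, differed by 0.33 ± 0.10. For SED1, the most abundant wall protein of starved cells, the truncation arrays disagreed, at 0.52 and 1.63, as they did for CCW12 at 0.80 and 1.498 and SCW4 at 0.82 and 1.39. These 3 are among 9 named genes that were called although their Epl1 1:380 arrays lay more than 0.5 apart. In SED1, CCW12, SCW4 and FBA1 replicate b was the higher, and in HSP31, SIP18 and YDR170W-A replicate a.

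Mating genes of both cell types were higher together. MFA1, which codes for a-factor, went from -0.14 and -0.06 to 0.90 and 0.85 and rose 1.96-fold. MF(ALPHA)1 and MF(ALPHA)2, which code for alpha-factor, went from -0.03 and -0.05 to 1.09 and 1.48 and from -0.20 and 0.12 to 1.16 and 1.27, rises of 2.497-fold and 2.38-fold. All 6 a-specific genes had positive differences, with a median of 0.33, and so had all 4 alpha-specific genes, with a median of 0.90. STE2 and STE3, the receptors for alpha-factor and a-factor, differed by 0.31 and 0.51, each at an adjusted p under 0.05 and below the fold limit. Of 21 pheromone response genes, 1 rose (4.76%, against 2.76% of all features). It was PRM5, which is also induced by cell wall stress (2.42-fold), while FUS1, a standard reporter of the pheromone pathway, differed by 0.22. Among 7 auxotrophic marker genes, checked for differences in strain background, 1 fell (14.29%, against 1.05% of all features). It was MET17, which is taken up with the sulphur genes, and all 7 differences were negative. TRP1, HIS3 and LYS2, at -0.41, -0.26 and -0.21, were with MET17 the 4 (57.14%) that were lower at an adjusted p under 0.05, against 19.1% of all features. LEU2, URA3 and ADE2 differed by -0.01, -0.11 and -0.03. The median of the 7 was -0.21, and 0.02 after scaling by the added RNA.

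Genes for making ribosomes were lower nearly throughout, mostly by amounts under the fold limit. The small subunit processome cuts and folds the 18S rRNA precursor. Of its 61 genes measured 4 fell (6.56%), 59 had negative differences and 55 were lower at an adjusted p under 0.05, with a median of -0.51. FAF1 went from 0.00 and 0.15 to -0.89 and -0.79 and NOP14 from 0.09 and 0.07 to -0.75 and -0.69. BMS1, a GTPase of the processome, and FAL1, a helicase, fell 1.72-fold and 1.71-fold. Assembly factors of the large subunit showed the same pattern, with all 65 differences negative and a median of -0.44. Of these 9 fell (13.85%) and 54 were lower at an adjusted p under 0.05. CGR1 fell 2.14-fold, from -0.02 and 0.11 to -1.14 and -0.97, and RIX1, of the Rix1 complex, 2.07-fold, from 0.01 and 0.04 to -1.09 and -0.96. BRX1, NOP7 and RRP8 fell by 0.90 to 0.91 on the log2 scale. Over all features 48.25% of differences were negative, 19.1% were lower at that adjusted p and 1.05% fell.

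The polymerases that make ribosomal and transfer RNA followed in part. Of 37 genes for subunits and factors of RNA polymerases I and III, 1 fell (2.7%, against 1.05% of all features). Negative differences were seen in 31, with a median of -0.33. At an adjusted p under 0.05, 23 were lower (62.16%, against 19.1% of all features). The called gene was RRN5, a subunit of the upstream activation factor of RNA polymerase I (1.73-fold, from 0.02 and 0.08 to -0.78 and -0.69). RPA135, the second largest subunit of polymerase I, had a difference of -0.67 ± 0.06, and RPO31, the largest of polymerase III, of -0.51 ± 0.05. MAF1, the repressor of polymerase III, was higher by 0.35 ± 0.06. Of the 126 measured genes of cytosolic ribosomal proteins 1 fell (0.79%, against 1.05% of all features), and their median was -0.11. That median was -0.27 with normexp and loess and -0.20 with print-tip loess, and ran from -0.21 to -0.02 with 1 array left out. The called gene was RPS21B, which fell by 1.31 ± 0.30 on the log2 scale, with truncation arrays at -1.64 and -1.22. With normexp and loess of the scanner intensities its difference was -0.52 and its call was lost. Mitochondrial ribosomal protein genes went the other way: 73 of 74 differences were positive and the median was 0.36. At an adjusted p under 0.05, 51 were higher (68.92%, against 21.7% of all features). Of the 74, 3 rose (4.05%, against 2.76% of all features). MRP2 went from -0.05 and 0.05 to 0.82 and 1.02 and rose 1.89-fold, and MRPL19 and RSM18 rose 1.74-fold and 1.72-fold. These medians kept their sign under each of the other scalings. Scaled by the added RNA they were -0.31, -0.30, -0.16, -0.21 and 0.57 in the order given, beside 0.30 for all features. Without tagged Epl1 replicate b they were -0.39, -0.40, -0.27, -0.15 and 0.46 on that scale, beside 0.03. On that scale the polymerase median reached 0.01 without tagged Epl1 replicate a and the cytosolic ribosomal protein median 0.06 without Epl1 1:380 replicate a.

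**Figure D4:**
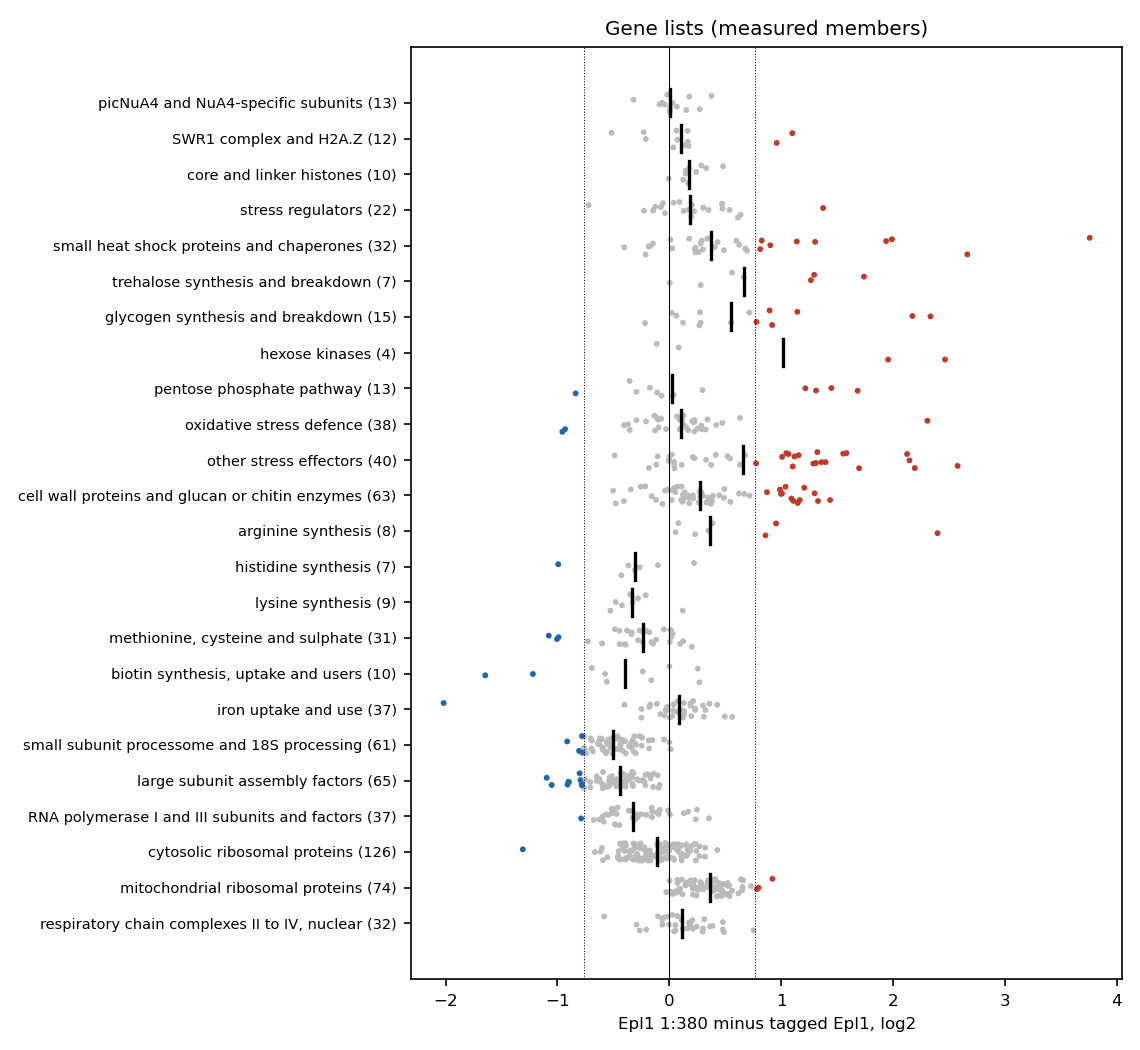
Difference between Epl1 1:380 and tagged Epl1 on the log2 scale for the measured members of 24 gene lists, with the number measured in brackets, a black bar for the list median, red for members that rose, blue for members that fell and dotted lines at the fold limit of 1.7. The ribosome assembly lists lie almost wholly left of zero without crossing the limit for most members, and the mitochondrial ribosomal proteins lie right of it. In the lists of stress effectors, chaperones and cell wall proteins a tail of members lies beyond the limit.

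Amino acid pathways differed from each other. In arginine synthesis all 8 measured genes had positive differences and 3 rose (37.5%, against 2.76% of all features). ARG3, the ornithine carbamoyltransferase, went from -0.42 and -0.28 to 1.99 and 2.10, a rise of 5.27-fold (adjusted p = 1.68e-06). CPA1, a subunit of the carbamoyl phosphate synthetase that supplies it, went from 0.26 and 0.30 to 1.15 and 1.13, and ARG8, the acetylornithine aminotransferase, from -0.02 and -0.10 to 0.95 and 0.84. The enzymes after ARG3, encoded by ARG1 and ARG4, differed by 0.39 ± 0.14 and 0.08 ± 0.06 and were not called. CAR1, arginase, which breaks arginine down, had a difference of -0.77 ± 0.05, at the edge of the fold limit, and ARG80, a regulator of the pathway, of -0.59 ± 0.05.

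Histidine and lysine synthesis lay on the other side. HIS4, which codes for an enzyme of several steps in histidine synthesis, fell 1.99-fold, from -0.40 and 0.02 to -1.22 and -1.15, and 6 of 7 histidine genes had negative differences. Of 9 lysine genes 8 had negative differences and 0 were called, with a median of -0.34 and LYS4 lowest at -0.53 ± 0.08. All 8 were lower at an adjusted p under 0.05 (88.89% of the 9, against 19.1% of all features). In sulphur metabolism 3 of 31 genes fell (9.68%, against 1.05% of all features) and 23 had negative differences. The list median of -0.24 became -0.02 after scaling by the added RNA and -0.27 on that scale without tagged Epl1 replicate b. MET17, which makes homocysteine from sulphide, fell from -0.12 and 0.13 to -1.16 and -0.99, and MMP1, a transporter of S-methylmethionine, from -0.41 and -0.07 to -1.38 and -1.11. SAM2, 1 of a pair of S-adenosylmethionine synthetases, fell from 0.24 and 0.33 to -0.60 and -0.81, while SAM1 differed by 0.00 ± 0.10. LEU9, the minor isopropylmalate synthase, fell by 0.83 ± 0.07 on the log2 scale, against -0.05 ± 0.08 for LEU4, the major one.

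The largest fall of all was in a metal transporter gene. ENB1 codes for the transporter of the siderophore enterobactin. It stood at -0.13 and 0.06 in tagged Epl1 and at -1.88 and -2.22 in Epl1 1:380, a fall of 4.05-fold (-2.02 ± 0.12, adjusted p = 9.50e-06). Its relatives ARN1, ARN2 and SIT1, which carry other siderophores, differed by 0.13, -0.40 and -0.25 and were not called. ENB1 was the only call among 37 iron genes (2.7%, against 1.05% of all features that fell), whose median was 0.09. Several of the other iron and copper genes split by array in Epl1 1:380: FRE1, a ferric and cupric reductase, stood at 0.97 and 0.12, FIT2, a wall protein that retains siderophores, at 0.42 and -0.67 and CTR1, the copper transporter, at 1.15 and 0.15 in replicates a and b. ZRT2, a zinc transporter among the 15 largest falls, fell 2.13-fold.

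Vitamin genes changed in both directions. BIO5, which takes up a biotin precursor, stood at 1.0004 and 1.02 in tagged Epl1 and at -0.96 and -0.31 in Epl1 1:380, a fall of 3.13-fold (-1.65 ± 0.18). BIO3, an aminotransferase of biotin synthesis that lies beside BIO4 and BIO5, went from 0.84 and 0.84 to -0.74 and -0.02. Both were high in the control, and their truncation arrays were far apart. BIO4 and BIO2, for the neighbouring steps, had differences of -0.69 ± 0.16 and -0.57 ± 0.09 without a call, and 8 of 10 genes of biotin synthesis, uptake and use had negative differences. In the thiamine pathway 2 of 18 genes rose (11.11%, against 2.76% of all features). THI4, of thiazole synthesis, went from 0.23 and 0.25 to 1.25 and 1.08, and THI11, of pyrimidine synthesis, from -0.11 and -0.20 to 0.81 and 0.74. THI11 belongs to a family of near-identical genes, so its probe may also report on its copies. PHO84, the phosphate transporter, was far below the pool in both strains, at -2.27 and -1.84 and -2.76 and -2.46, and NCE103, carbonic anhydrase, far above it, at 1.55 and 1.84 and 2.44 and 2.26, and neither was called.

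Some genes that are silent or low in growing cells also rose. RIM4, an RNA-binding protein that controls translation in meiosis, went from 0.06 and 0.07 to 1.93 and 2.05 (3.80-fold, adjusted p = 1.91e-06). It was 1 of 4 rises among 39 meiotic and sporulation genes (10.26%, against 2.76% of all features). The others were DMC1 and HOP1, of meiotic recombination and the chromosome axis, and SPR28, a septin of sporulation, at 1.78-fold, 1.71-fold and 1.70-fold. IME1, the master activator of meiosis, differed by 0.10 ± 0.30, IME2, the kinase that follows it, by -0.06 ± 0.07, and the list median was 0.09. Of 24 DNA damage induced genes 3 rose (12.5%, against 2.76% of all features). RNR3, the damage-induced large subunit of ribonucleotide reductase, went from 0.09 and 0.02 to 1.09 and 1.05, against 0.43 for the difference of RNR1, the standard subunit. DDI2 and DDI3 rose 2.11-fold and 2.04-fold, and since they are near-identical copies their signals cannot be told apart. HUG1 and RAD54, both induced by DNA damage, differed by 0.23 and -0.11.

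The position of the called genes on the chromosomes was described from gene order alone. Among 221 measured genes within the first 10 of a chromosome end 8 rose (3.62%) and 3 fell (1.357%). Of 568 genes at place 11 to 30 from an end, 1.937% rose, and of 4486 genes farther in, 2.385%. Subtelomeric families gave no calls among 10 COS genes, with a median of 0.39, and 16 seripauperin genes, with a median of 0.16. Both families were nevertheless shifted upward below the fold limit. At an adjusted p under 0.05, 7 COS genes were higher and 1 lower, and 8 seripauperin genes were higher and 0 lower. Over all features 21.7% were higher and 19.1% lower at that adjusted p. All 16 seripauperin differences were positive, but probes of similar family members can share signal, so the counts in both families may not be independent. In 11 pairs of adjacent genes both members were called, and 10 pairs changed in the same direction. Rises made up 72.43% of all calls, which alone favours pairs of the same direction. The numbers to be met without regard to position were not computed. PAI3 and SIP18, CWP1 and CWP2, GSY2 and HSP60, and MF(ALPHA)1 and UIP4 rose together. YOR302W, the short upstream reading frame of CPA1, rose by 1.04 with CPA1 itself. The exception was UBP10, a ubiquitin protease of silencing, which fell by 0.81 beside MRPL19, which rose by 0.80.

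Epl1 1:485 keeps more of the protein by its label and was set directly against Epl1 1:380 to ask whether the shorter fragment has its own profile. In limma 0 of 6377 features were called between them (0%), 183 had an unadjusted p under 0.05 and the smallest adjusted p was 0.9999. The largest difference in favour of Epl1 1:380 was 0.45, for CTR1. Without Epl1 1:380 replicate b, 3 features were called between the fragments, namely CTR1, FRE1 and RPL36B, and the remaining truncation array of each was the one that stood apart. Epl1 1:485 against tagged Epl1 called 186 features (2.92%), 142 higher (2.23%) and 44 lower (0.69%). Against the tagged Epl1 arrays that both comparisons share, HSP26 differed by 3.76 in Epl1 1:380 and 3.67 in Epl1 1:485. The values were 2.40 and 2.03 for ARG3, -2.02 and -2.16 for ENB1, -1.65 and -1.49 for BIO5 and -1.05 and -0.92 for RIX1. The absence of calls does not show that the fragments act alike.

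The eaf1 deletion removes the platform to which the C-terminal part of Epl1 ties the module, and its effect was measured against Eaf1 1:982, a different pair of arrays. Of the 176 features that rose in Epl1 1:380, 87 (49.432%) also rose in the deletion, where they made up 65.909% of 132 rises. Of the 67 that fell, 12 (17.91%) also fell there, out of 39 (30.769%). No feature was called in opposite directions. The deletion called 171 features in all (2.68%). All 4 strains were measured against the same pool. The test of the difference between the effects called 74 features (1.16%), 47 with the higher value in Epl1 1:380 (0.737%) and 27 with the lower (0.423%). That count was 28 with normexp and loess of the scanner intensities, 36 with print-tip loess and 0 after scaling by the added RNA, where limma gave an unadjusted p under 0.05 for 37 features.

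For several of the strongest rises the effect of Epl1 1:380 was the larger. HSP26 rose by 3.76 in Epl1 1:380 and by 1.40 in the deletion, a difference of effects of 2.36 (adjusted p = 0.00083). ARG3 rose by 2.40 and 0.83, a difference of 1.57 (adjusted p = 0.00083). SSA4 rose by 1.94 in Epl1 1:380 and had a value of 0.51, without a call, in the deletion, and the effects differed (adjusted p = 0.00279). CPA1, THI4 and SPI1 rose in Epl1 1:380 by 0.86, 0.93 and 1.09, with deletion values of -0.13, -0.13 and 0.05, and their effects differed as well. RIM4 gave 1.92 and 1.84, ENB1 -2.02 and -1.77, and TCB2, a tricalbin of membrane contact sites, -1.05 and -1.17, with no call for the difference in any of these. Falls with a larger effect in Epl1 1:380 included BIO5, at -1.65 and -0.27, LEU9, at -0.83 and 0.23, and RNH203, a subunit of ribonuclease H2, at -1.13 and -0.11.

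Genes of respiration had higher medians in the deletion, and few of the nuclear ones had a called difference of effects. Genes of the mitochondrial genome had a median of 0.08 in Epl1 1:380 and 0.49 in the deletion. A called difference of effects was found in 5 of 18, against 1.16% of all features. Most of the 5 are intron-encoded reading frames of COX1 and so are not separate genes. AI2, an intron-encoded reading frame of COX1, was higher by 0.60 ± 0.12 in Epl1 1:380 without a call and by 1.77 in the deletion (adjusted p of the difference = 0.0062). The controls differed too: AI2 stood at 0.99 and 0.79 in tagged Epl1 and at 0.55 and 0.50 in Eaf1 1:982, and AI1, another intron-encoded frame of COX1, at 0.64 and 0.64 in tagged Epl1 and -0.01 and 0.20 in Eaf1 1:982. In all 5 genes both tagged Epl1 arrays lay above both Eaf1 1:982 arrays, and the part of this in the difference of effects was not tested. Nuclear genes of the respiratory chain had medians of 0.11 and 0.45, with 1 of 32 differing, CYC1, cytochrome c, at -0.58 and 0.51. Nuclear genes of ATP synthase had medians of 0.05 and 0.52, with 1 of 17 differing. The mitochondrial ribosomal proteins had medians of 0.36 and 0.26, and 0 of 74 had a called difference of effects.

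**Figure D5:**
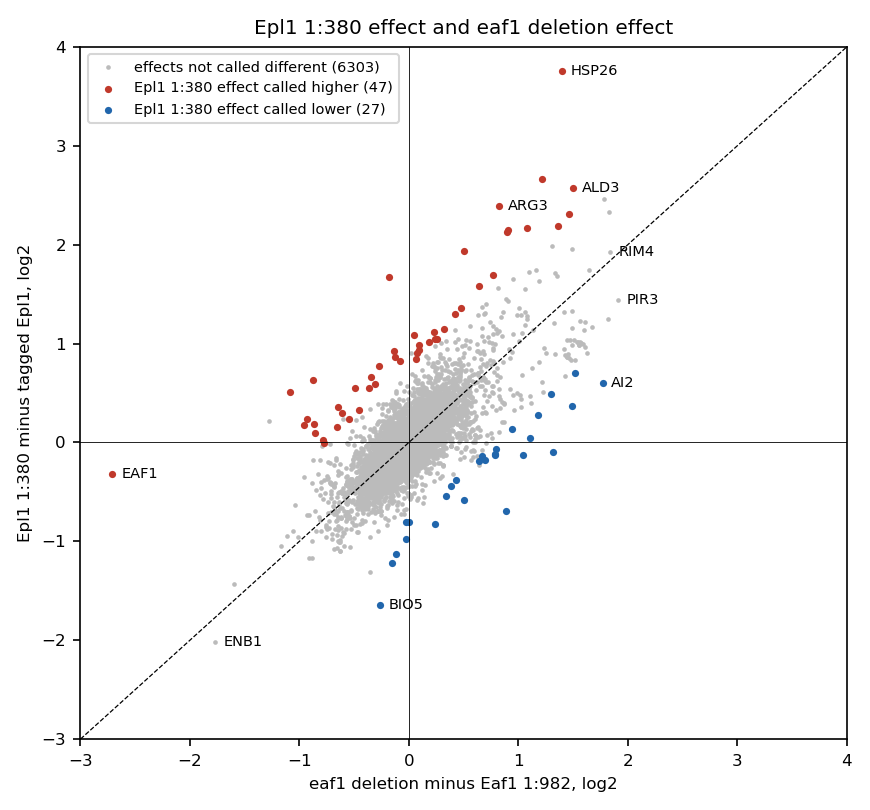
Each point is 1 of 6377 features, with the eaf1 deletion minus Eaf1 1:982 on the horizontal axis and Epl1 1:380 minus tagged Epl1 on the vertical axis, both on the log2 scale, and the dashed line at equal effects. Red marks 47 features and blue 27 features whose effects were called different. HSP26, ALD3 and ARG3 lie above the line, BIO5 and AI2 below it, and RIM4 and ENB1 close to it.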

How the data were processed

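Each array compared RNA of 1 yeast strain with a reference pool. The values used are the authors' deposited log2 Cy5/Cy3 ratios, normalized by loess within each print tip, with no background subtracted, and then corrected for dye bias gene by gene, per the deposited protocol text. The raw files hold spot intensity values, per the file headers, and were used for alternatives and for the match of matrix rows to gene names by spot position.

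Replicate a ratios were multiplied by -1 to give strain over pool, and spots were averaged per gene symbol. A RefSeq table of assembly R64 held 5255 of the 5315 gene names as symbols and 58 as synonyms. It served for codon counts and gene order, and no coordinates are printed because the files state no build. limma 3.58.1 in R 4.3.3 fitted all 10 arrays with 1 coefficient per strain (lmFit and eBayes, 5 residual and 4.00 prior degrees of freedom), and p-values were adjusted over all 6377 features. Figures were drawn with Python 3.11.15. Data of the same size were simulated with independent noise of the observed residual spread. In these, 83.9% of 1.8-fold changes, 97.9% of 2.5-fold changes and 0.013% of unchanged features were called for Epl1 1:380 minus tagged Epl1. Deviations shared by arrays of the same replicate letter were not simulated, so the rates in the real arrays may differ. The number of arrays limits the precision. The oligonucleotide sequences of the probes were not used here.

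Named genes were NuA4 subunits, the 15 named features with the largest called rise and the 15 with the largest fall, up to 4 called members per list (or the 2 largest changes where fewer than 2 were called), any member of lists of at most 20 measured genes, and paralogs beside them. Outside that rule, ADR1, BRX1, CCW12, CTR1, DDR48, FIT2, FRE1, FUS1, GPM1, GRE1, HSF1, HSP104, HSP31, HSP60, HSP78, HUG1, IME1, IME2, MAF1, PAI3, PEP4, PHO84, PNC1, RAD54, RPL36B, RPO31, SCW4, SOD1, UBP10, UIP4, USV1, YDR170W-A, YJR154W and YOR302W were chosen after their values were seen. The lists, members and comparisons were chosen with earlier results of these data known. Alternatives were other background corrections and normalizations, centring on the median or on added RNA controls, a filter on dim features, the median of spots, the replicate letter as a block, other fits and limits, and leaving out each array, also together with centring on the added RNA controls, which was chosen after seeing the data.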

Additional observations from a re-analysis of the deposited data

Results flagged for a closer look

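The effect of Epl1 1:380 against tagged Epl1 and the effect of the eaf1 deletion against Eaf1 1:982 differed in 74 features by the test of the difference itself. For genes named above, the difference of effects on the log2 scale, Epl1 1:380 minus deletion, was as follows, each at an adjusted p under 0.05 and over the fold limit. Among chaperone genes it was 2.36 for HSP26, 1.45 for HSP12, 1.43 for SSA4 and 0.91 for HSP78. Among other stress genes and reserve carbohydrate genes it was 1.24 for SIP18, 1.23 for MSC1, 1.10 for PGM2, 0.93 for GRE1, 0.89 for DCS2, 0.84 for CTT1, 0.83 for DDR2, 0.79 for HXT5 and 0.77 for DDR48. For genes of the cell surface and mating it was 1.04 for SPI1, 0.88 for CWP2 and 0.83 for GSC2. Among metabolic, vitamin and metal genes with a higher value in Epl1 1:380 it was 1.57 for ARG3, 1.08 for ALD3, 1.06 for THI4, 1.001 for NCE103, 0.99 for CPA1, 0.83 for ALD4 and 0.80 for YOR302W. The features with a lower value in Epl1 1:380 gave -0.78 for YJR154W, -0.81 for UBP10, -1.01 for RNH203, -1.06 for LEU9, -1.06 for BIO3, -1.09 for CYC1, -1.17 for AI2, -1.38 for BIO5, -1.41 for AI1 and -1.58 for BIO4. For EAF1, which the deletion removes, it was 2.39. With strains of 2 arrays each, no sample could be tested for standing apart from its group.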

How the results depend on the processing

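The 176 rises and 67 falls kept within 1.5 times under most alternatives, and no called feature changed sign under any of those planned. Centred on the added RNA controls without loess, 38 features rose and 1 fell, 0 differed in effect from the deletion, and the median of all features was 0.30. An alternative chosen after seeing the data left out each array in turn under that centring. It gave 94 and 3 rises without tagged Epl1 replicates a and b, 7 and 2 without Epl1 1:380 replicates a and b, 0 to 1 falls and 0 differences of effects, with a median of all features of 0.03 without tagged Epl1 replicate b and 0.27 to 0.51 without any other array of both strains. Without a fold limit the counts were 1385 higher, 1216 lower and 373 for the difference of effects from the deletion, and with a fold over 2 they were 93, 18 and 32. The difference of effects was called for 28 features with normexp and loess of the scanner intensities and for 36 with print-tip loess, of which 27 and 35 were among the 74. With the study's limits of an unadjusted p under 0.01 and a fold over 1.7, 175 features rose and 67 fell. The replicate block, in which the letter is also the dye orientation, gave 177 rises, 67 falls, 0 differences between the fragments and 76 differences of effects, and the deviations of Epl1 1:380 and tagged Epl1 from their means correlated with r = 0.396 for the same letter. Leaving out 1 array gave 168 to 172 rises, 51 to 94 falls, 0 to 3 differences between the fragments and 55 to 94 differences of effects. With 1 array left out, its strain has a single array, whose spread is assumed to equal that of the other strains. On that assumption, 129 rises and 42 falls kept their call whichever array was left out. Of the 97 called genes named in the text, 28 kept their call under each alternative normalization, centring, filter, fit and single-array omission. A gene removed by the filter on dim features was counted as kept there. Other fold and p limits, and centring on the added RNA with an array left out, are not part of that count. The call was lost without tagged Epl1 replicate a for CDC19 (0.76), DMC1 (0.75), FBA1 (0.74), HOP1 (0.69), MRPL19 (0.71) and YDR170W-A (0.95), without tagged Epl1 replicate b for FAL1 (-0.71), HSP60 (0.73), HSP78 (0.66), PEP4 (0.68), RKI1 (-0.75), RPS21B (-1.19), RRN5 (-0.75), RSM18 (0.72), SED1 (1.03), SPR28 (0.63), UBP10 (-0.76), UGP1 (0.65) and YDR170W-A (0.86), without Epl1 1:380 replicate a for BMS1 (-0.72), FAL1 (-0.76), HOP1 (0.64), HSP31 (0.56), HSP60 (0.72), LEU9 (-0.72), PEP4 (0.67), RPS21B (-1.10), RRN5 (-0.74), SPR28 (0.64), UBP10 (-0.73), UGP1 (0.74), YDR170W-A (0.60) and YJR154W (-0.61), and without Epl1 1:380 replicate b for CCW12 (0.65), CDC19 (0.75), FBA1 (0.46), MRPL19 (0.74), RSM18 (0.71), SCW4 (0.72) and SED1 (0.61). With normexp and loess it was lost for BDF2 (1.20), CCW12 (0.66), CDC19 (0.46), FBA1 (0.57), HOP1 (0.76), HSP104 (1.27), HSP60 (0.54), MRPL19 (0.68), NOP14 (-0.71), PEP4 (0.71), RPS21B (-0.52), RRP8 (-0.84) and YDR170W-A (0.82), with print-tip loess for BDF2 (1.15), BMS1 (-0.76), CCW12 (0.72), CDC19 (0.45), FAL1 (-0.76), FBA1 (0.73), HSP104 (1.33), HSP60 (0.75), PEP4 (0.64), RRP8 (-0.85) and YDR170W-A (0.91), and centred on the added RNA for 69 of the named genes. Without the dimmest 25% of features, 140 rises and 62 falls remained.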
